A study of Homo sapiens with 9 samples.

Results

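Low-dose retinoic acid (RA) and an inhibitor of the histone demethylase LSD1 were given to NB4 cells alone and together, and the measure described here is how far the level of each gene under both agents lay from what the single agents add up to. NB4 is a human cell line from an acute promyelocytic leukaemia, and its cells express the fusion protein PML-RARA. Expression was measured by RNA sequencing of total RNA. Of the 9 libraries of the series, 4 enter the measure, 1 each from cells kept for 24 h with DMSO (the vehicle), with MC_2580 (labelled as an LSD1 inhibitor, with no dose), with 0.01 uM RA, or with both agents (the combination). Another treated library, RA at 1 uM for 24 h, was not used by the measure and serves for comparison. The remaining 4 libraries came from untreated NB4 cells, 2 labelled LSD1 KO (knockout) and 2 labelled WT (wild type), and the labels do not say how many clones the KO libraries represent. For each gene the departure from additivity was log2(combination + 1) minus log2(MC_2580 + 1) minus log2(RA 0.01 uM + 1) plus log2(DMSO + 1), with levels in FPKM (fragments scaled by transcript length and by the mapped fragments of the library). A departure of 1 means that the level under both agents was 2-fold above the sum of the single effects on this scale, and genes were called above or below additivity at 2-fold. Of 35856 loci in the treatment table, 14045 had a value in all 4 libraries and at least 1 FPKM in 1 of them, and 9976 of these were protein-coding genes with 1 locus.

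RA binds the retinoic acid receptors, which in promyelocytic leukaemia include the PML-RARA fusion, and pharmacological doses release the maturation block so that promyelocytes proceed along the granulocyte path. LSD1, encoded by KDM1A, removes methyl groups from lysine 4 of histone H3 and acts in complexes with CoREST and with the repressors GFI1 and GFI1B at myeloid genes. Inhibition of LSD1 in myeloid leukaemia cells is known to unlock myeloid maturation genes and to sensitise some cells to RA. The 4-library design asks whether the inhibitor alters the response to a low dose of RA.

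There was 1 library per treatment, so no difference between treatments has a replicate check, and genes were called by size with no test. Read totals were not stated, but the spacing of low values gave relative depths. Set against DMSO, 1 FPKM stood for 0.87 times the reads in MC_2580, 0.74 in RA 0.01 uM, 0.89 in RA 1 uM and 0.77 in the combination. The promyelocyte gene MPO stood at 2450 to 6520 FPKM across all 9 libraries, while ELANE (neutrophil elastase) was under 0.3 FPKM in all of them (0 to 0.242). KDM1A (AOF2 in the table) stood at 69.9 FPKM in DMSO, 66.9 in MC_2580, 52 in RA 0.01 uM and 50.8 in the combination. In the knockout set it stood at 14 and 16.8 FPKM in KO and at 49.8 and 66.6 in WT, with no overlap, and the authors' test of the replicate 2 pair is listed as failed for this gene. Markers of other lineages were checked: 6 of 16 lymphoid, 8 of 12 eosinophil, basophil and mast cell, 3 of 14 erythroid and megakaryocyte and 2 of 13 fibroblast and epithelial markers were kept, and 0 of them were 2-fold above or below additivity. So few markers tell little, since 2.82% of all protein-coding genes lay above and 0.361% below. Summed levels in DMSO and the combination were 144 and 304 FPKM for the lymphoid list and 1380 and 406 FPKM for the eosinophil, basophil and mast cell list, and the part of either in the results was not tested. KIT, CD34, MS4A1 and HBB were under 1 FPKM in all 4 libraries. In bulk samples fewer cells of a type and less RNA per cell cannot be told apart.

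Departures were mostly small and leaned upward. Of the 9976 protein-coding genes, 281 (2.82%) lay at least 2-fold above additivity and 36 (0.361%) at least 2-fold below. The median departure was 0.04 on the log2 scale, and the range ran from -3.45 to 3.59. Over all 14045 loci, short RNAs and unnamed loci included, 635 (4.52%) lay above and 383 (2.73%) below. The only replicated libraries gave an error scale. The same kind of 4-library difference taken between replicate numbers, (KO 1 minus KO 2) minus (WT 1 minus WT 2), passed 2-fold upward in 20 (0.195%) and downward in 22 (0.214%) of 10280 protein-coding genes. Over all 13589 loci of the knockout table it did so in 587 (4.32%) and 465 (3.42%). Protein-coding genes above additivity were thus far more frequent than replicate differences of that size, while the shares over all loci were close to the replicate shares. This scale cancels any shift between replicate numbers that KO and WT share, so it can understate the spread of 4 separate libraries. Of the 280 genes above additivity with knockout set values, 9 (3.21%) had a replicate difference past 2-fold themselves, beside 35 of 9943 (0.352%) of all protein-coding genes. Of the 36 below additivity, 0 did. Replicates and treatments came from separate tables, and culture-to-culture variation under the treatments was not measured. At the edges, 57 genes had a departure of 0.9 to under 1 and 51 had 1 to under 1.1, and 76 genes just under the 1 FPKM limit had departures of -0.54 to 0.82 beside -0.91 to 0.82 for the 69 just over it.

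**Figure D1:**
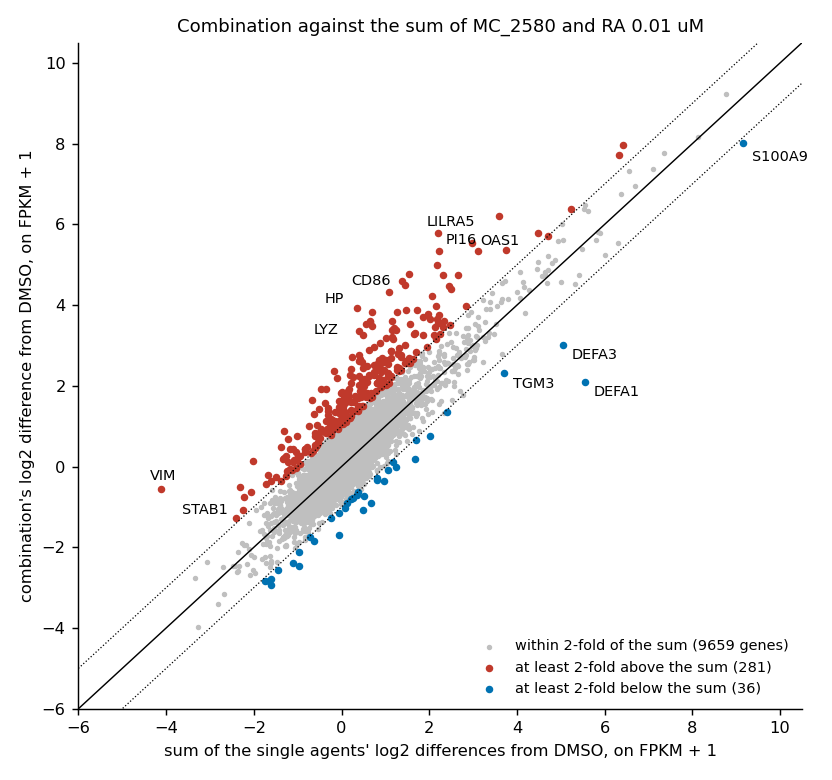
Each point is a protein-coding gene (9976), with the sum of the log2 differences of MC_2580 and RA 0.01 uM from DMSO on the x axis and the log2 difference of the combination from DMSO on the y axis, both on FPKM + 1. The solid line marks equality and the dotted lines 2-fold, and the 281 red genes above the band far outnumber the 36 blue genes below it.

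Among genes that reached 5 FPKM in at least 1 library, the 15 highest departures ran from 2.78 to 3.59. LILRA5, an activating leukocyte receptor of monocytes and neutrophils (chromosome 19, 59510165 to 59516221, build hg18), stood at 0.015 FPKM in DMSO, 0.0339 in MC_2580, 3.55 in RA 0.01 uM and 54.7 in the combination. The combination exceeded RA 0.01 uM 15.4-fold, while the inhibitor alone left the gene near 0, and the departure was 3.59. HP, the haemoglobin scavenger haptoglobin (chromosome 16, 70646009 to 70668646), stood at 0.112, 0.365 and 0.154 FPKM in DMSO, MC_2580 and RA 0.01 uM and at 15.9 in the combination. Only the library with both agents held an appreciable level, and RA at 1 uM gave 0.434 FPKM. CD86, a costimulatory ligand of antigen-presenting cells (chromosome 3, 123256911 to 123322672), stood at 0.17, 1.93, 0.219 and 27.3 FPKM in the same order, a departure of 3.21. ADGRE3, an adhesion receptor of mature myeloid cells (EMR3 in the table), stood at 0.0819, 0.0949, 1.27 and 20.6 FPKM. S100A12, a calcium-binding protein of neutrophils and monocytes, stood at 0, 0.317, 0.223 and 10.1 FPKM. Its replicates differed widely (0.116 and 3.11 FPKM in KO), so that its replicate difference of -1.85 was the largest in size among the genes above additivity.

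PI16, a peptidase inhibitor, showed a strict form of the pattern, being listed at 0 FPKM in DMSO, RA 0.01 uM and RA 1 uM, at 3.66 in MC_2580 and at 39.6 in the combination. GIMAP4, an immune GTPase, was likewise listed at 0 in DMSO and RA 0.01 uM, at 0.31 FPKM in MC_2580 and at 9.33 in the combination. LRRK2, a kinase expressed in myeloid cells, stood at 0.396, 2.92, 1.26 and 43.2 FPKM, a departure of 2.80. The others of the 15 were VIM and LYZ, described next, and KIAA0513, MS4A6A, SERPINB2, PALLD and SLC15A3, whose combination levels were 11.7 to 32.6 FPKM where no other of the 4 libraries exceeded 1.47. The combination was the highest of the 5 treated libraries in 14 of the 15, VIM being the exception.

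**Figure D2:**
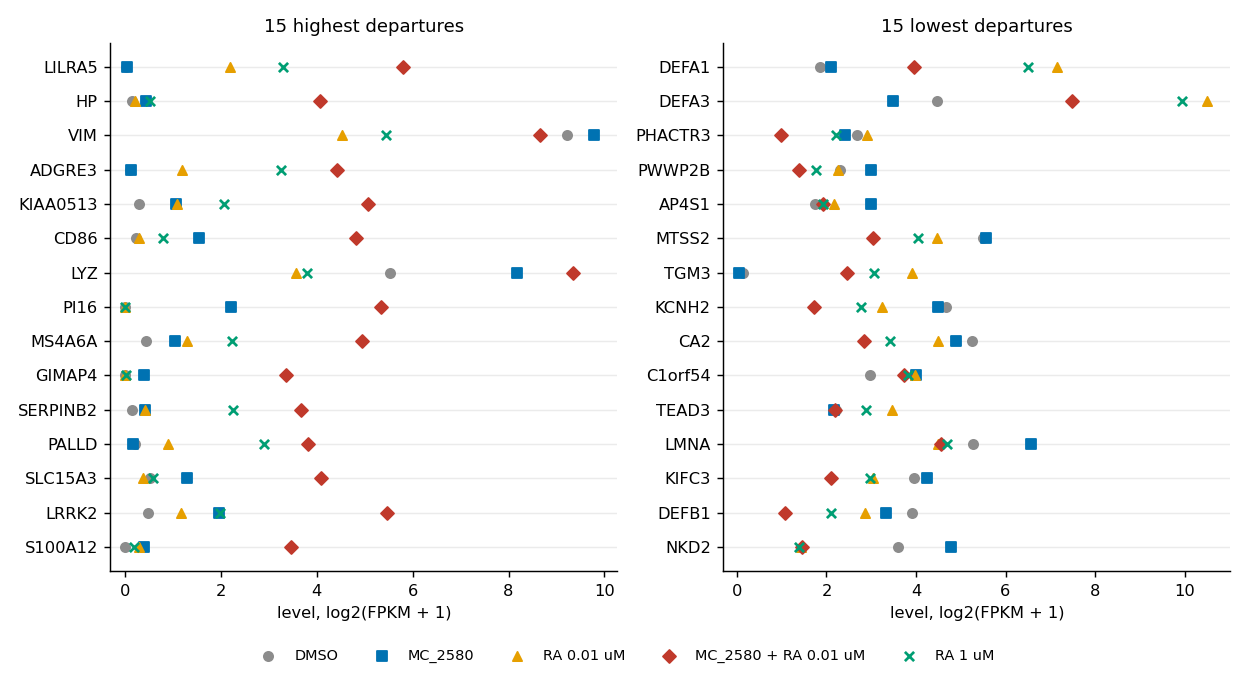
Levels of the 15 protein-coding genes with the highest departure (left) and the 15 with the lowest (right) in the 5 treated libraries, 1 point per library, on a log2(FPKM + 1) axis. On the left the combination (red diamond) is the highest point in 14 of 15 genes, and on the right it is the lowest point in 7 of 15.

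The 281 genes met the rule in different ways, and raised or lowered here means 2-fold above or below DMSO in that library. RA 0.01 uM alone was 2-fold above DMSO for 48 of them, within 2-fold for 190 and 2-fold below for 43. A low value under RA 0.01 uM enters the departure with a positive sign, so these counts describe how the rule was met. In all 48 genes that RA raised, the combination was a further 2-fold above RA 0.01 uM. The rule nearly fixes this count, since MC_2580 lowered 0 of the 281 genes. Over all 467 protein-coding genes that RA raised, the combination was a further 2-fold above in 75. Of the 190, 142 were higher by 2-fold in the combination and in neither single agent, a class that held 452 (4.53%) of all protein-coding genes, against 186 (1.86%) that the combination alone lowered. On plain FPKM some low genes of this class were more than 2-fold above DMSO with a single agent. KIAA0513, for example, was 4.7-fold above in MC_2580 and 4.84-fold in RA 0.01 uM. Of the 281, 180 were at least 2-fold above both single agents, a class of 249 (2.5%) among all protein-coding genes, with 18 (0.18%) at least 2-fold below both. Most genes that the combination raised did so without a large departure. Of 925 genes 2-fold above DMSO in the combination, 217 were above additivity, 703 within 2-fold of it and 5 below. Of 341 genes 2-fold below DMSO, 324 were within 2-fold of additivity.

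For the 43 genes above additivity that RA lowered, the rule itself favours a higher level in the combination than in RA 0.01 uM. Of them, 29 were back within 2-fold of DMSO in the combination, 12 were 2-fold above it and 2 were still 2-fold below. Over all 273 protein-coding genes that RA lowered, most stayed low. In the combination 155 were still 2-fold below DMSO, 105 were within 2-fold and 13 were 2-fold above. VIM, the intermediate filament protein vimentin (chromosome 10, 17311250 to 17319591), stood at 593 FPKM in DMSO, 879 in MC_2580, 22.2 in RA 0.01 uM and 404 in the combination. RA alone was 26.7-fold below DMSO, and RA on top of the inhibitor was 0.46 times the inhibitor alone. TNF, the inflammatory cytokine, stood at 93.6, 107, 19.3 and 104 FPKM in the same order, a departure of 2.17. CTSH, a lysosomal cysteine protease, stood at 65.7, 80.2, 21 and 121 FPKM. Both genes were also low in RA 1 uM (22.8 and 22 FPKM), and both were low only in the libraries with RA and no inhibitor. LYZ, the bactericidal enzyme lysozyme (chromosome 12, 68028401 to 68034280), stood at 45.3 FPKM in DMSO, 290 in MC_2580, 10.9 in RA 0.01 uM and 653 in the combination. RA was 4.16-fold below DMSO without the inhibitor, and with it the level was 2.26-fold above the inhibitor alone. LYZ alone met 2-fold in both directions, and at 1.5-fold 17 genes did so, among them GLIPR1, LTB, IRF8, IFIT1 and GFI1. CD48, a lymphocyte and myeloid adhesion ligand, stood at 10.4, 29.4, 2.34 and 42.3 FPKM, and GLIPR1 at 5.85, 20.1, 0.969 and 34.4 FPKM.

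Interferon response genes were the list with the highest median departure. Of 46 genes listed, 44 had a locus of their own and 40 were kept, of which 19 were above additivity and 0 below. Over all protein-coding genes 2.82% were above and 0.361% below, and the same shares apply beside every list that follows. The median departure was 0.96, beside 0.04 over all 9976 genes, and 37 of the 40 departures were above 0. OAS1, which makes the activator of the antiviral RNase L, stood at 0.944 FPKM in DMSO, 2.69 in MC_2580, 7.01 in RA 0.01 uM and 88.6 in the combination, with 14.4 in RA 1 uM. Its departure was 2.56, but its replicate difference also passed 2-fold (-1.16), with 16.4 and 5.48 FPKM in WT. OAS2 stood at 0.191, 0.392, 3.02 and 15.5 FPKM, and OASL at 0.475, 0.732, 1.79 and 12.7. In each of these sister genes the level was lowest in DMSO, higher in MC_2580, higher still in RA 0.01 uM and highest in the combination. GBP1, an interferon-gamma induced GTPase, stood at 0.0227, 0.998, 0.246 and 9.68 FPKM, a departure of 2.13. HERC5, the ligase that attaches ISG15, stood at 5.79, 11.9, 1.89 and 17.6 FPKM, so that RA alone was below DMSO. IFIT3, an antiviral RNA-binding protein, stood at 2.23, 3.26, 6.85 and 30.8 FPKM, and TRIM22, an antiviral ubiquitin ligase, at 2.93, 5.21, 6.78 and 37.2.

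On the FPKM + 1 scale the inhibitor alone was 2-fold above DMSO in 0 of the 40 interferon response genes, RA 0.01 uM in 17 and the combination in 36. Over all protein-coding genes the shares were 0.712%, 4.68% and 9.27%, so that 0 of 40 with the inhibitor lies near the share over all genes. In 38 of the 40 the combination was the highest of the treated libraries with a value, TRIM22 having none in RA 1 uM. Some members that stood high in RA 0.01 uM alone were close to the sum: IFI30, a lysosomal thiol reductase, stood at 0.633, 1.16, 29.6 and 42.9 FPKM, a departure of 0.12, and IFI6 at 8.29, 9.61, 101 and 164 FPKM, a departure of 0.50. The immunoproteasome subunits PSMB8 (-0.08) and PSMB9 (-0.25) were also within 2-fold of additivity. The members also differed together between untreated replicates. WT 1 was above WT 2 in 38 of 39 members with values, by a median of 0.81 on the log2 scale, and KO 1 above KO 2 in 32 of 39, by a median of 0.30. The median of the replicate 4-library difference was -0.42, and the departure was larger than the gene's own replicate difference in 30 of 39 (76.9%), beside 60.2% of all protein-coding genes. Whether the 4 treated libraries differ in this way apart from the treatments was not tested.

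**Figure D3:**
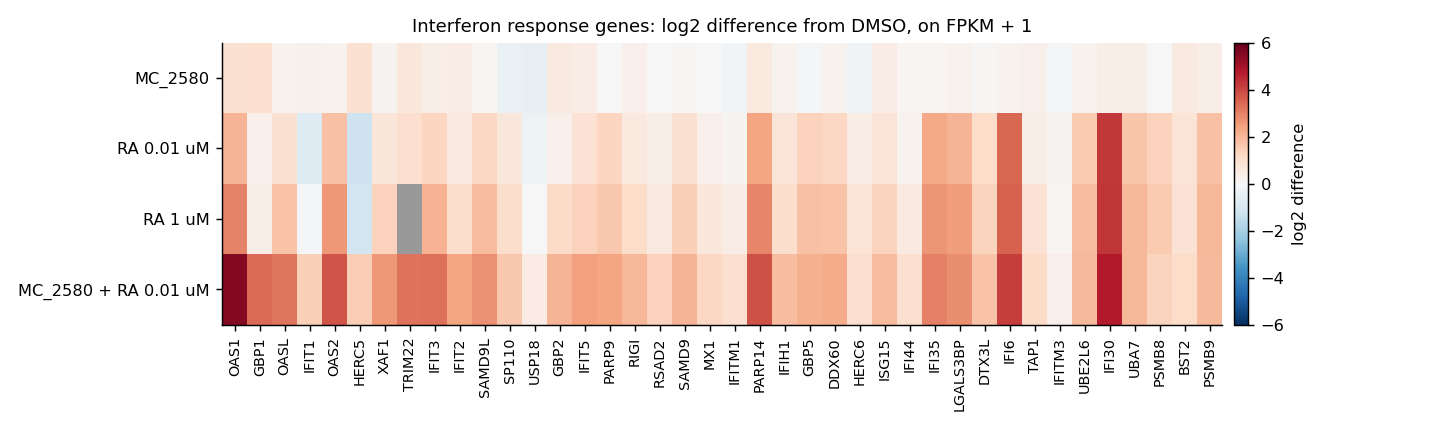
Log2 difference from DMSO on FPKM + 1 (colour) for the 40 kept genes of the interferon response list (columns, ordered by departure) with the 4 libraries other than DMSO as rows; grey marks a missing value. The combination row is the reddest of the rows with a value in 38 of the 40 genes. The MC_2580 row is 2-fold above DMSO in 0 of the 40, beside 0.712% of all protein-coding genes.

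The promoters of these genes are shown because their levels were high together in the combination. RefSeq windows (GRCh38.p14) of the 250 bases before each annotated start were searched on both strands for GAAANNGAA, the core of the interferon-stimulated response element. It was found in 20 of 32 interferon response genes with a window (62.5%), in 39 of 201 genes above additivity (19.4%), in 1 of 24 below (4.17%) and in 7.58% of all kept protein-coding genes with a window. Leaving out the interferon response list, 31 of 188 genes above additivity held it (16.5%). A match is a description of the letters and not a site of binding. Stretches are given 5′ to 3′ on the strand of the gene, with the matches on either strand in capitals, for IFIT1 (chr10:89392468-89392569, plus strand), the IFIT3 start with 3 matches, which overlap in part (chr10:89332390-89332527, plus strand), GBP1 (chr1:89065275-89065374, minus strand) and CXCL10 (chr4:76023648-76023747, minus strand).
IFIT1: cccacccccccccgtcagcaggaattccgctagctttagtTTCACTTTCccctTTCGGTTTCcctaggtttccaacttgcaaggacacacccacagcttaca
IFIT3: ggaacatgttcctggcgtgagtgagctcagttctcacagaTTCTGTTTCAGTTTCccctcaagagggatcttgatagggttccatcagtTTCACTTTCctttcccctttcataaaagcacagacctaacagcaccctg
GBP1: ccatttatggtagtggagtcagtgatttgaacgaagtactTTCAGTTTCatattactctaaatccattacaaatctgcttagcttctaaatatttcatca
CXCL10: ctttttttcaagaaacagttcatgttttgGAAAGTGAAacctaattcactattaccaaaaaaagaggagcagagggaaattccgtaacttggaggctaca
The OAS1 window held no GAAANNGAA.

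Of the factors that carry interferon signals, 3 of 19 kept were above additivity, beside 2.82% of all protein-coding genes, and 0 below. Their median was 0.44. IRF8, a factor that drives the monocyte path, stood at 6.32 FPKM in DMSO, 16.3 in MC_2580, 3.04 in RA 0.01 uM and 33.5 in the combination, a departure of 1.85. IRF7, the amplifier of type I interferon, stood at 4.78, 7.22, 7.87 and 25.7 FPKM (1.08). IFNGR2, a chain of the interferon-gamma receptor, stood at 53.2, 57.3, 31.2 and 70 FPKM (1.03). STAT2 (0.95), a transducer of the interferon receptors, lay just inside 2-fold. IRF1, which RA is known to induce, stood at 15.5, 22.6, 119 and 163 FPKM and was additive (-0.06). The interferon receptor chains IFNAR1 (0.65) and IFNAR2 (0.45) and the kinase JAK1 (0.39) were within 2-fold.

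Chemokines and cytokines gave 9 of 22 kept members above additivity and 0 below, with a median of 0.88. CXCL10, the interferon-induced chemokine of T cells, stood at 1.84 FPKM in DMSO, 20 in MC_2580, 0.897 in RA 0.01 uM and 74.8 in the combination, a departure of 2.44. IL1B, the inflammasome cytokine, stood at 0.623, 2.2, 2.68 and 24.4 FPKM (1.81). LTB, a TNF-family ligand, stood at 9.49, 19, 2.98 and 38.8 FPKM (2.39), although its replicate difference also passed 2-fold (-1.06). In these 3 genes the inhibitor alone was above DMSO and the combination was the highest library. CCL3 (4.62, 8.99, 4.94 and 27.5 FPKM) and TNFSF10, the death ligand TRAIL (5.4, 8.96, 2.32 and 15.5 FPKM), were above additivity too, as were CCL4, CCL7, CSF1 and TNF. Some RA-induced chemokines were not. CCL2, a chemokine of monocytes, stood at 2.12, 2.46, 385 and 519 FPKM (0.28), and CCL24, a chemokine of eosinophils, at 0.0931, 0, 93.5 and 49.7 (-0.77). Genes that RA induced strongly by itself were thus found on both sides of 0. The list also shifted between untreated replicates, with medians of 0.42 for WT 1 minus WT 2 and 0.40 for KO 1 minus KO 2. CXCL10, for example, stood at 12.7 and 1.68 FPKM in WT. Whether the treated libraries differ in this way apart from the treatments was not tested.

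Of the NF-kB subunits and their feedback genes 7 of 18 were above additivity and 0 below, with a median of 0.72. BIRC3, an inhibitor of apoptosis and a standard NF-kB target, stood at 0.959 FPKM in DMSO, 1.86 in MC_2580, 1.24 in RA 0.01 uM and 14.3 in the combination (2.23). BCL3, a nuclear coactivator of the family, stood at 1.81, 2.93, 10.3 and 58.2 FPKM (1.90). The subunit gene REL stood at 2.81, 2.59, 3.51 and 11.9 FPKM (1.60). Neither single agent was 2-fold from DMSO for REL. NFKBIZ (1.38), TNFAIP3 (1.19), NFKB2 (1.13) and TNFAIP2 (1.01) made up the 7, while RELA (0.05) was additive. Untreated replicates of this list differed too, by medians of 0.52 for WT 1 minus WT 2 and 0.29 for KO 1 minus KO 2. Whether the treated libraries differ in this way apart from the treatments was not tested. In the knockout set the feedback gene TNFAIP3, which encodes the deubiquitinase A20, pointed the other way, at 6.34 and 2.19 FPKM in KO and 25.6 and 6.55 in WT.

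Granulocyte maturation genes gave 8 of 22 kept members above additivity and 1 below, with a median of 0.61. They included receptors and effectors. The formyl peptide receptors FPR2 (0.106 FPKM in DMSO, 0.0995 in MC_2580, 0.47 in RA 0.01 uM and 6.53 in the combination) and FPR1 (0.0307, 0.104, 0.378 and 3.67 FPKM in the same order) detect bacterial peptides. The complement receptor C5AR1 stood at 1.12, 1.25, 0.864 and 8.7 FPKM (2.29). These 3 chemoattractant receptors were near or under 1 FPKM in the other 3 libraries and in RA 1 uM (0.223 to 1.42). CEACAM1 (2.45), FCGR2A (1.36) and PADI4 (1.15), the enzyme that citrullinates histones in neutrophils, were also above. S100A9, a subunit of calprotectin, was below additivity, standing at 2.44, 17.1, 369 and 885 FPKM (-1.14), although the combination was the highest of the 5 libraries. Its partner S100A8 stood at 0.921, 4.71, 105 and 420 FPKM (0.41). ITGAM (CD11b), the usual marker of RA maturation, stood at 2.68, 13.9, 22.9 and 136 FPKM, a departure of 0.50, so that its gain under both agents was near the sum of gains that each agent gave. The late granule genes LTF and LCN2 were listed at 0 in the combination.

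The NADPH oxidase, which makes the respiratory burst of phagocytes, followed the sum. Of its 6 subunits 0 were above or below additivity, with a median of 0.25, while 6 were 2-fold above DMSO in the combination. CYBB, the catalytic subunit, stood at 10.7 FPKM in DMSO, 19.2 in MC_2580, 112 in RA 0.01 uM and 330 in the combination (0.76). NCF1, whose reads may be shared with near-identical pseudogenes, stood at 2.72, 5.48, 929 and 2250 FPKM (0.47). Primary granule genes, which promyelocytes make, gave 1 of 16 above, LYZ, and 1 below, with a median of -0.22. Beside 2.82% of all protein-coding genes above and 0.361% below, counts of 1 in 16 tell little. PRTN3, the serine protease proteinase 3, stood at 178, 219, 762 and 454 FPKM (-1.05) and at 966 in RA 1 uM. CTSG, cathepsin G, stood at 58.6, 43.6, 10.3 and 4.65 FPKM (-0.58). Apart from LYZ, 3 of the list's 16 genes departed upward at all (SERPINB1, BPI and HEXA), and each by under 2-fold.

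Monocyte and macrophage genes gave 6 of 17 kept members above additivity and 0 below, with a median of 0.67. Besides CD86 they were FCN1, a secreted lectin (9.72 FPKM in DMSO, 11.5 in MC_2580, 20.2 in RA 0.01 uM and 114 in the combination), CD14, the endotoxin co-receptor (0.109, 0.221, 0.124 and 3.03), TREM1, CLEC7A and STAB1. CD14 and CLEC7A stayed at or under 3.03 FPKM in all 4 libraries. STAB1 stood at 12.5, 31.6, 0.188 and 5.4 FPKM (1.16), so the combination remained below DMSO. CD163 and VCAN were under 1 FPKM in all 4 libraries. Of the haemostasis genes 3 of 9 were above, beside 2.82% of all protein-coding genes. Among them were SERPINB2, an inhibitor of plasminogen activators (0.103, 0.345, 0.333 and 11.7 FPKM), and PLAUR, the urokinase receptor (21.8, 28.8, 6.05 and 25.4). Of the adhesion and migration genes 5 of 19 were above, with a median of 0.34. Among them CXCR4, the receptor that retains cells in the marrow, stood at 61.7, 93.7, 86.4 and 366 FPKM (1.48), and CCR2, the receptor of CCL2, at 0.273, 1.05, 0.121 and 4.27 (1.54). ICAM1, which reached 1850 FPKM in the combination from 10.6, 28.7 and 425, departed by 0.77. For the adhesion and migration list WT 1 minus WT 2 and KO 1 minus KO 2 had medians of 0.49 and 0.33.

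Of 21 kept retinoid targets 5 were above additivity and 0 below, beside 2.82% of all protein-coding genes above. The median was 0.44 and 16 of the 21 departures were above 0, while RA 0.01 uM alone was 2-fold above DMSO in 13. CYP26A1, the enzyme that degrades RA, stood at 0.0396 FPKM in DMSO, 0.0178 in MC_2580, 2.49 in RA 0.01 uM and 14.2 in the combination, and at 37.4 in RA 1 uM (2.15). TGM2, transglutaminase 2, stood at 0.0609, 0.132, 78.5 and 223 (1.40) with 322 in RA 1 uM. CYP26A1 and TGM2 thus lay between the 2 RA doses in the combination. RARB, a receptor that RA induces in many cells, stood at 0.156, 0.139, 1.07 and 1.66 FPKM against 7.51 in RA 1 uM, and departed by 0.38. CYP26B1 (-0.10), DHRS9 (-0.47) and PRAM1 (-0.11) were within 2-fold. The CYP26A1 promoter is printed because CYP26A1 was the only gene above additivity with a window that held a direct repeat of AGNTCA spaced by 5 bases, the form of a retinoic acid response element, a repeat held by 0.0655% of all promoter windows (chr10:93073763-93073862, plus strand, RefSeq, with the repeat in capitals).
CYP26A1: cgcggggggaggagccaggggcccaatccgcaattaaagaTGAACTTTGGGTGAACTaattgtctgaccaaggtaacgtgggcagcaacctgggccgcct

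Of 18 genes of the LSD1 complex 1 was above additivity, with a median of 0.06. With 2.82% of all protein-coding genes above, 1 of 18 tells little about the list. The gene above was GFI1, the repressor that recruits LSD1, at 67.1 FPKM in DMSO, 106 in MC_2580, 41.4 in RA 0.01 uM and 167 in the combination (1.33). In the knockout set GFI1 stood at 98.4 and 98.2 FPKM in KO and at 43.7 and 46.5 in WT, with no overlap. GFI1B, its erythroid and megakaryocytic relative, stood at 1.87, 6.71, 22.9 and 95.4 FPKM (0.59) and at 8.83 in RA 1 uM. Of 30 myeloid transcription factors 4 were above additivity (GFI1, KLF6, ATF3 and EGR2) and 0 below, beside 2.82% of all genes above, and the median was 0.09. The maturation factors SPI1 (-0.18), CEBPE (0.10), CEBPB (0.16) and ID2 (-0.44) followed the sum. CEBPE stood at 37.1, 52.2, 175 and 262 FPKM and at 341 in RA 1 uM.

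Growth genes leaned below the sum by small amounts. Of 18 MYC targets and ribosome biogenesis genes 17 had a departure under 0, with a median of -0.37, but 0 passed 2-fold. MYC stood at 319 FPKM in DMSO, 309 in MC_2580, 135 in RA 0.01 uM and 81.3 in the combination (-0.68), below its 157 in RA 1 uM. ODC1, the polyamine enzyme, stood at 325, 307, 314 and 190 FPKM (-0.63). Neither agent alone was 1.5-fold from DMSO for ODC1. Of 29 cell cycle genes 23 were under 0, with a median of -0.21, and of 21 cholesterol synthesis genes 17, with a median of -0.26, again with 0 past 2-fold in either list. HMGCS1 stood at 406, 286, 249 and 133 FPKM (-0.39) and INSIG1 at 332, 251, 325 and 160 (-0.62). The replicate 4-library difference had medians of -0.02 for the MYC targets, -0.18 for the cell cycle and -0.65 for cholesterol synthesis. In size the departure was above this value for the MYC targets, near it for the cell cycle and below it for cholesterol synthesis. A shift that KO and WT share between replicate numbers cancels in this value. The medians of WT 1 minus WT 2 and KO 1 minus KO 2 were -0.46 and -0.60 for the MYC targets. They were -0.47 and -0.66 for the cell cycle, so single replicate pairs differed by more than the departures of both lists. For cholesterol synthesis they were 0.51 and -0.03. Whether the treated libraries differ in this way apart from the treatments was not tested. Stem and progenitor genes (9 kept), amino acid stress genes (11) and CDK inhibitors (12) had medians of 0.04, 0.16 and 0.02. Of the CDK inhibitor and growth arrest list, MXD1, a MYC antagonist, was above additivity (10.6, 10.6, 8.73 and 22.7 FPKM, 1.28) and CDKN1C below (0.777, 1.87, 2.58 and 1.82 FPKM, -1.04). Of 20 apoptosis genes BCL2A1, a survival protein, was above (7.04, 5.86, 211 and 445 FPKM), and BCL2 stood at 17.5, 15.3, 4.12 and 2.12 FPKM (-0.54). The replicate difference of BCL2A1 also passed 2-fold (1.01). Single genes past 2-fold tell little about these lists, since 2.82% of all protein-coding genes lay above and 0.361% below.

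**Figure D4:**
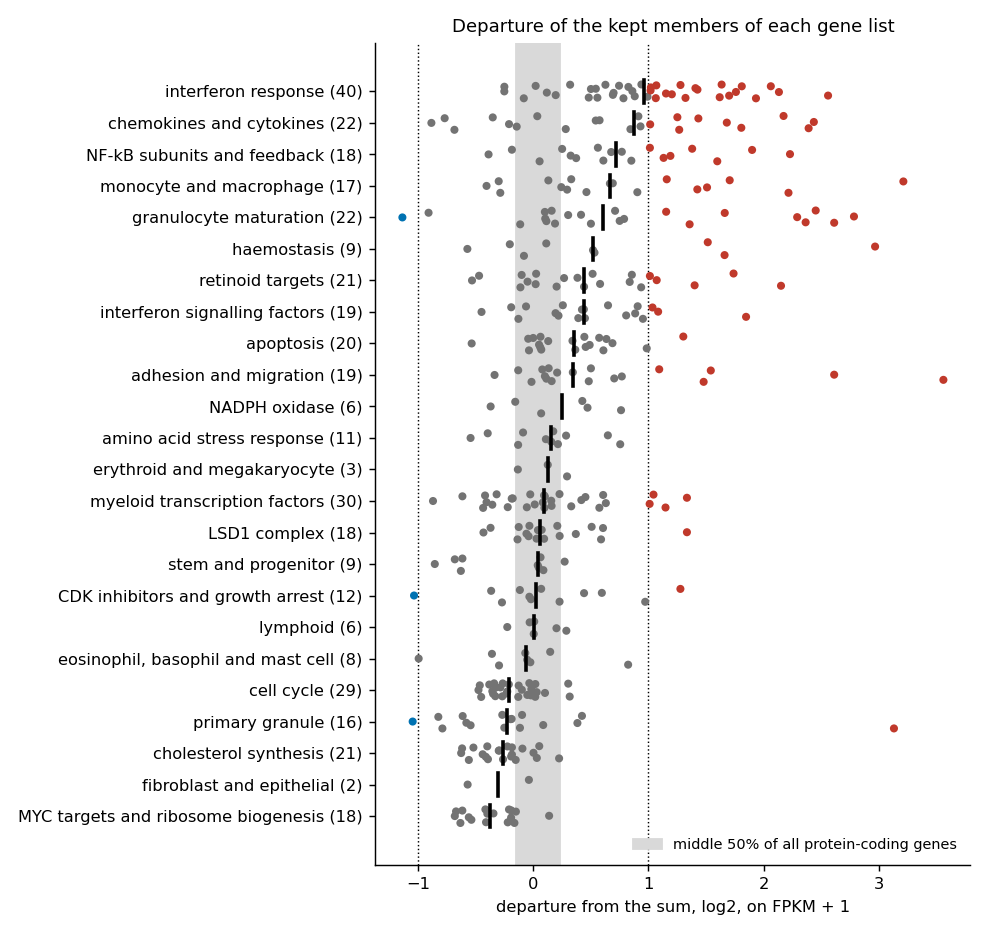
Departure from the sum (x axis, log2 on FPKM + 1) of every kept member of each gene list (number in brackets), with the list median as a black bar, members 2-fold above in red and 2-fold below in blue, and the middle 50% of all protein-coding genes in grey. Interferon response genes have the highest median (0.96) and MYC targets and ribosome biogenesis genes the lowest (-0.37).

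The 36 genes below additivity were fewer and of mixed kinds. The largest departures belonged to DEFA1 and DEFA3, neutrophil alpha-defensins whose near-identical copies can share reads, so that their separate values are uncertain. DEFA3 stood at 21.2 FPKM in DMSO, 10.2 in MC_2580, 1450 in RA 0.01 uM and 178 in the combination, with 979 in RA 1 uM. DEFA1 stood at 2.62, 3.29, 142 and 14.5 FPKM, and DEFA4, which lay within 2-fold of additivity (-0.79), at 2.18, 0.492, 271 and 72.7. All 3 defensins were high with RA alone at either dose and lower when the inhibitor was added. TGM3, a transglutaminase, stood at 0.0997, 0.0402, 14.1 and 4.46 FPKM (-1.39), and TEAD3, a transcription factor of the Hippo pathway, at 3.62, 3.52, 10.1 and 3.6 (-1.24). In TGM3 and TEAD3 the inhibitor alone was close to DMSO, and the gain seen with RA was smaller or absent with both. LMNA, which encodes lamin A and C, showed the converse, at 37.7, 93.8, 21.4 and 22.4 FPKM (-1.23), as did NKD2, an inhibitor of Wnt signalling (11.1, 26.6, 1.7 and 1.76 FPKM). In both the inhibitor's gain was not seen when RA was present.

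Other genes below additivity were lowest with both agents. KCNH2, a potassium channel, stood at 24.5 FPKM in DMSO, 21.6 in MC_2580, 8.45 in RA 0.01 uM and 2.32 in the combination, and DEFB1, a beta-defensin, at 14.1, 9.02, 6.25 and 1.12. CA2, carbonic anhydrase 2, stood at 36.8, 28.7, 21.4 and 6.2 FPKM, MTSS2 at 44.4, 46.4, 21.1 and 7.27, and PHACTR3 at 5.43, 4.3, 6.53 and 0.983. The combination was 2-fold below DMSO in 15 of the 36 and 2-fold below both single agents in 8. KCNH2 and DEFB1 were also low in the knockout set, with 1.25 and 1.9 FPKM in KO against 15.1 and 23 in WT for KCNH2, and 3.99 and 3.36 against 38.7 and 37.7 for DEFB1. Neither gene's groups overlapped.

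The combination was also set beside RA at 1 uM, a library that the measure did not use. Of 279 genes above additivity with a value in RA 1 uM, the combination was 2-fold above RA 1 uM in 196 and 2-fold below in 2, CYP26A1 and PTGES, a prostaglandin synthase (25.7 FPKM against 87.8). Among the 15 highest departures RA 1 uM was above RA 0.01 uM in 13, but reached at most 42.7 FPKM for VIM and 13 for LYZ, against 404 and 653 in the combination. Of the 36 genes below additivity the combination was 2-fold below RA 1 uM in 12 and 2-fold above in 1. Over all 9948 protein-coding genes with a value in RA 1 uM it was 2-fold above in 324 (3.26%) and 2-fold below in 43 (0.432%). The combination library enters both the departure and these counts, so the rule itself favours such a difference.

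The knockout set gave a readout independent of the 4 treated libraries. KO values lay above WT values without overlap and 2-fold in the mean for 187 (1.88%) of 9943 protein-coding genes, and below for 89 (0.895%). Among genes above additivity these numbers were 37 of 280 (13.2%) and 5 of 280 (1.79%), the 5 being CMPK2, G0S2, CCL3, BMP2 and TNFAIP3. Among the 36 below additivity they were 3 (NOG, S100A9 and C1orf54) and 3 (DEFB1, KCNH2 and DEFA3). There were 2 libraries per genotype, so no test was made, and loss of LSD1 cannot be told apart from other differences between the lines. PI16 stood at 6.06 and 5.93 FPKM in KO and was listed at 0 in both WT libraries, and GIMAP4 at 3.59 and 3.82 FPKM against 0 in both. LYZ stood at 381 and 912 FPKM in KO and 34.1 and 116 in WT, and LRRK2 at 9.11 and 4.96 against 0.671 and 0.392. These 4 genes were among the highest departures, and each was already higher with the inhibitor alone than in DMSO. Of the 37, 18 were 2-fold above DMSO under MC_2580 alone and 10 were 2-fold below DMSO under RA 0.01 uM. In 33 the combination was above both single agents, which the choice by departure favours. CCR2, C5AR1, TREM1 and GFI1 belonged to the 37, while LILRA5, HP, VIM, CD86 and OAS1 did not: LILRA5 stood at 0.274 and 0.317 FPKM in KO and 0.511 and 0.48 in WT, and VIM at 670 and 396 against 563 and 356. Of the interferon response list 3 of 39 were above in KO and 1 below.

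**Figure D5:**
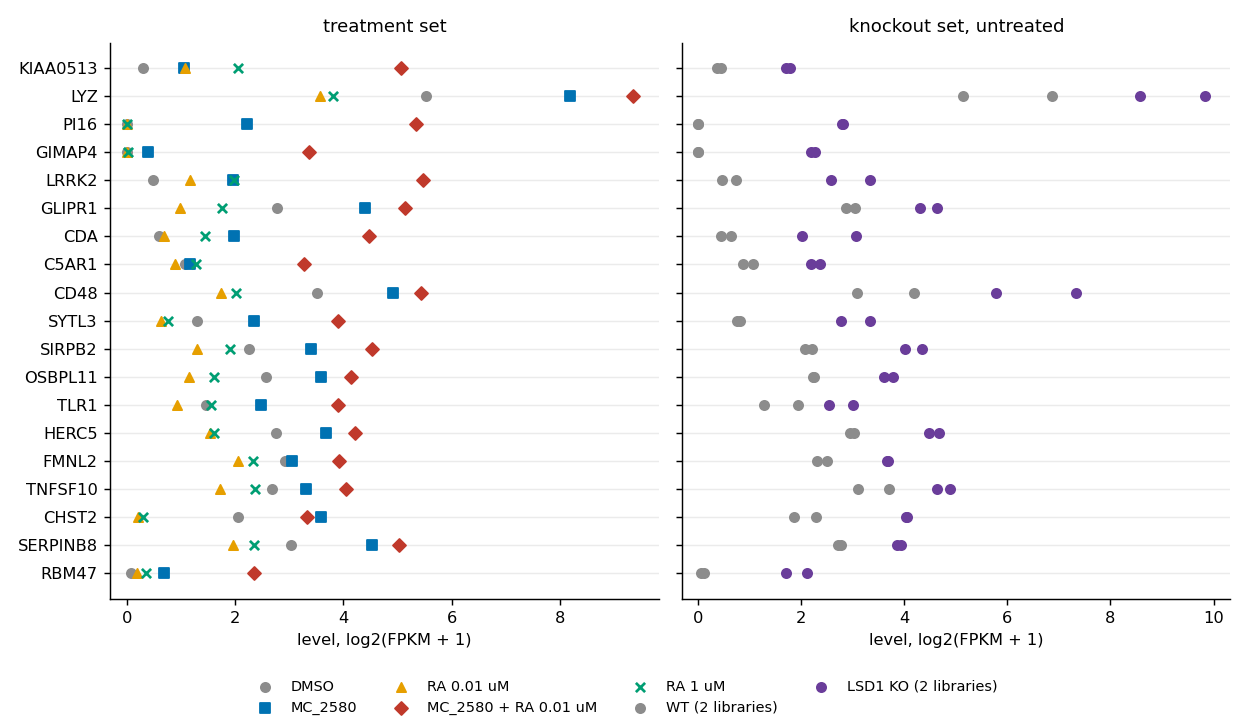
Levels on a log2(FPKM + 1) axis of 19 of the 20 genes with the highest departures among the 37 whose KO libraries lay 2-fold above WT without overlap, in the 5 treated libraries (left) and the untreated knockout set (right), 1 point per library. The 2 KO points lie to the right of both WT points in every row by the rule that chose them. The combination is the rightmost treated point in 18 of the 19 rows, which the choice by departure favours.

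Promoter windows of the highest departures were read for other motifs in the same way. TGANTCA, the AP-1 element, was found in 31 of the genes above additivity with a window (15.4%), in 0 of 24 below and in 5.61% of all kept protein-coding genes with a window. Among the 15 highest departures 12 had a window and 5 of them held it. GAGGAAGT, a PU.1 element, stood at 9.45% above and 3.35% in all kept genes, and TTGCNNAA, a C/EBP element, at 16.4% and 8.57%. GGGAANNCC and GGGANNNCC, NF-kB elements of which the second holds every match of the first, stood at 10.9% and 28.9% above, beside 9.6% and 30.2% in all kept genes. TTCNNNGAA, the gamma-activated site, stood at 9.45% and 7.71%. No AGNTCA repeat spaced by 1 or 2 bases was found in a window of the genes above additivity, and 0.0847% and 0.0242% of all kept genes held them. Many genes had more than 1 window and none was weighed by use in NB4 cells. Stretches with TGANTCA in capitals are printed for 3 of the 15 genes, S100A12 (chr1:153375622-153375718, minus strand), SERPINB2 (chr18:63887563-63887662, plus strand) and ADGRE3 (chr19:14674845-14674937, minus strand).
S100A12: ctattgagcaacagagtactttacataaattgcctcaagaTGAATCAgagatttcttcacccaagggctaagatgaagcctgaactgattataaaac
SERPINB2: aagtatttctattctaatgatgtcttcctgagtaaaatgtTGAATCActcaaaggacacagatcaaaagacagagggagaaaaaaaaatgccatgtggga
ADGRE3: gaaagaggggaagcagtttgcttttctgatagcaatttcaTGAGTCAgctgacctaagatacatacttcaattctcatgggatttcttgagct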

How the data were processed

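Cells were lysed in TRIzol, RNA was purified on RNeasy columns and libraries were made with TruSeq V2, per the labels' protocols. That kit does not mark strand, so overlapping and antisense genes cannot be separated. The deposited values are FPKM per locus in the layout of Cuffdiff, made by the authors, and build hg18, Cuffdiff, Cufflinks, TopHat2 2.0.10, TopHat 1.3.1 and CASAVA 1.8 are listed per the submitters' processing notes, with no role or annotation. The 2 tables (treatments, knockout) were made separately, and levels were not compared across them. The deposited knockout values carry an added 0.001, which was taken off. Of the treatment loci 941 lacked a value in at least 1 of the 4 libraries and were left out. Among knockout loci, 7 with a failed test, KDM1A among them, kept their listed values, and 1 locus with too many fragments was left out.

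Departures were computed in Python 3.11.15 with pandas 2.3.3 and numpy 2.4.6, with a pseudocount of 1 FPKM. Fold calls are on the log2(FPKM + 1) scale, which understates the fold differences of low genes. Departures of low genes can move either way, since the single-agent folds shrink too. On plain FPKM GBP1 was 44-fold above DMSO with the inhibitor, 10.8-fold with low-dose RA and 426-fold with both agents. The last value did not exceed the product of the others, yet the departure was 2.13. At a pseudocount of 0.1 FPKM, 412 protein-coding genes lay above additivity, beside 281 at 1 FPKM. The calculation was tested on simulated data. Tables were joined by symbols matched to RefSeq. Groups came from the labels. Some genes that met the naming rule are not reported here. Nothing says that replicates were separate cultures. With 1 library per treatment no test was made. Named genes were those of at least 5 FPKM with the 15 highest and 15 lowest departures, KDM1A, list members past 2-fold with up to 4 further members per list, and the 10 highest departures among genes that the combination alone moved 2-fold; other genes named were chosen after their values were seen. Members and lists were chosen with earlier results of these data known. Alternatives changed the pseudocount, filter, scaling, additive scale, fold and reference.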

Additional observations from a re-analysis of the deposited data

Results flagged for a closer look

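The departure of LYZ, the lysozyme gene, was 3.13 on the log2 scale, and it stands out because RA at 0.01 uM went in opposite directions without and with the inhibitor. Without MC_2580 the difference of RA from DMSO was -1.96, and with MC_2580 the difference of the combination from the inhibitor alone was 1.17. Each value rests on 1 library per treatment, and the difference between them was not tested.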

How the results depend on the processing

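No paired analysis was possible because each treatment has 1 library and the results come from no test. Leaving out a replicate was likewise not possible for the departures. The 281 genes above additivity became 142 at a pseudocount of 5 FPKM and 50 at a 4-fold threshold, and the 36 below became 90 at a pseudocount of 0.1, 7 at 5, 57 after quantile normalization, 60 against a linear sum, 2 at 4-fold and 18 against the more extreme single agent. Loci above were 394 at a pseudocount of 5, 301 at 4-fold and 400 against the more extreme single agent, and loci below were 252 and 100 under the last 2 of these. Genes that the combination alone moved 2-fold numbered 638, 369 at a pseudocount of 5 and 207 at 4-fold. The share of calls above additivity was 88.6% and ran from 80.5% to 96.2% over the alternatives. STAB1 turned to -0.0602 at a pseudocount of 5, -1.66 against the linear sum and -2.35 against the more extreme single agent. S100A9 turned to 1.20 against the linear sum and 5.61 against the single agent. Against that agent, which asks another question where 1 agent lowers a gene, VIM stood at -1.12, TNF at -0.0465, KLF6 at -0.48, PLAUR at -0.18, DEFA1 at 1.85, DEFA3 at 3.997, TGM3 at 2.39, TEAD3 at 0.0272, LMNA at 0.0621, NKD2 at 0.0333 and PRTN3 at 1.05. Of 100 named genes past 2-fold, 100 kept their direction after rescaling and after quantile normalization, 99 at a pseudocount of 5, 98 against the linear sum and 87 against the single agent. Of 24 list medians, 3 turned sign after rescaling, 1 after quantile normalization, 1 with a limit of 5 FPKM and 4 against the single agent. The cause of these shifts was not tested. Depth limits genes near 1 FPKM most.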

Other observations

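Genes outside the lists, picked after their values were seen, included sensors of microbial products. MYD88, the adaptor of Toll-like receptors, stood at 8.78 FPKM in DMSO, 10.8 in MC_2580, 10.2 in RA 0.01 uM and 58.1 in the combination, a departure of 2.13. AIM2, a sensor of cytosolic DNA, stood at 0.0241, 0.355, 0.0825 and 8.74 FPKM, and NLRP12 at 0.192, 0.667, 0.719 and 9.79. The kinase gene IRAK2 stood at 1.11, 1.35, 1.15 and 6.96 FPKM (1.73) and TLR1 at 1.76, 4.59, 0.907 and 13.9 (1.95). In each the combination was the highest of the 4 libraries.

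Further genes above additivity were also picked after their values were seen. CTSB, the lysosomal protease cathepsin B, stood at 20.2 FPKM in DMSO, 30.9 in MC_2580, 15.8 in RA 0.01 uM and 138 in the combination (2.47), and TFEB, a factor of lysosome biogenesis, at 1.19, 2.17, 1.73 and 12.7 (1.79). CD74, the invariant chain, stood at 0.644, 1.24, 1.2 and 12.7 FPKM (2.18). AHR, the aryl hydrocarbon receptor, stood at 7.33, 9.78, 4.84 and 20.2 FPKM (1.49), and its known target CYP1B1 at 23.5, 36.1, 6.54 and 32.3 (1.54), lower in the combination than in MC_2580. No test was made of these groups.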
